A study of Mus musculus with 8 samples.

Results

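The limb and body wall patterning factors are 8 mouse transcription factor genes, chosen by name from the 51789 genes of the deposited table with earlier results of these libraries known. They comprise the homeobox genes Lbx1, Alx4 and Pitx1, the T-box genes Tbx3, Tbx4, Tbx5 and Tbx15, and the paired box gene Pax3. Each gene was found in the table under a single Ensembl identifier. Of the 8, Lbx1, Alx4, Tbx3, Tbx5 and Tbx15 passed the count filter and were fitted with 17858 genes in all, whereas Pitx1, Tbx4 and Pax3 did not. The levels of Lbx1 and Alx4 in the same comparisons were known when the set was chosen, so all differences of the members are given as descriptions.

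RNA was sequenced from whole mammary glands of female C57BL/6 mice injected in the abdominal gland with small extracellular vesicles (sEVs). The sEVHYP glands (2 libraries) had received sEVs shed in hypoxia by AT3, a mouse line from a mammary adenocarcinoma that metastasizes, and the sEVNORM glands (3 libraries) had received sEVs shed by the same cells in normoxia. The sEVCTRL glands (3 libraries) had received a preparation from medium in which no cells had grown. The labels name only the mammary gland and the treatment, without the age of the mice or the side or number of the gland of each library. They do not link libraries to animals, although the paper states 2 to 3 animals per group for this sequencing. Any SD given is the spread between these libraries. The SE comes from a fit that pools this spread over the 3 groups and moderates it over genes.

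In the embryo, these factors mark position in the lateral plate and paraxial mesoderm. Tbx5 acts in the forelimb field, Pitx1 and Tbx4 act in the hindlimb field, Alx4 patterns the anterior limb bud and the ventral body wall, Tbx15 acts in limb and skin mesenchyme, and Pax3 and Lbx1 act in the muscle precursors that migrate from the somites into limb and trunk. Tbx3 is needed for the earliest mammary placode, and mesenchymal cells of the adult keep part of their positional gene expression.

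Total counts ranged from 18194996 to 24622569 per library, and values are given as CPM, in which counts are scaled by TMM to equal library size. A count of 0 allows up to 3 counts, which is 0.121 to 0.164 CPM at this depth and covers counting error only. The tissue label was checked against markers. Luminal epithelium (Krt8, 48.2 to 109 CPM, and Epcam, 63.5 to 128), adipocytes (Adipoq, 678 to 1580) and fibroblasts (10 of 10 markers passed the filter) were present in all 8 libraries. Of the 11 marker lists, the summed level of 17 skeletal muscle markers varied most, from 40.8 CPM in sEVNORM replicate 2 to 16647 in sEVHYP replicate 2. A further library, sEVNORM replicate 3, held 66.6 CPM of summed keratinocyte markers against 6.02 to 9.07 in the other libraries. In whole tissue, fewer cells of a type and less RNA per cell cannot be told apart.

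The set divided by level into 3 tiers, best compared per kilobase of exon. Tbx15 had the highest level per length in 8 of 8 libraries, with a mean of 5.14 CPM per kilobase (range 2.70 to 8.52). Tbx3 followed at 1.79 (range 0.988 to 2.37) and was second in 7 libraries. In sEVHYP replicate 2, Lbx1 took the second place at 3.94 CPM per kilobase. Alx4 (mean 0.629, range 0.251 to 1.47 CPM per kilobase) was above Lbx1 in 7 of 8 libraries, although Lbx1 had the higher mean (0.767, range 0.0178 to 3.94) through the sEVHYP libraries. Tbx5 (mean 0.219, range 0.0543 to 0.412) was below Alx4 in 7 of 8 libraries, and it was above Lbx1 in 5 of the 6 sEVCTRL and sEVNORM libraries and below it in both sEVHYP libraries. Tbx4 (mean 0.0150), Pitx1 (0.0115) and Pax3 (0.00842) lay near 0, at or under 5 counts in every library, and no order can be read among them.

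**Figure D1:**
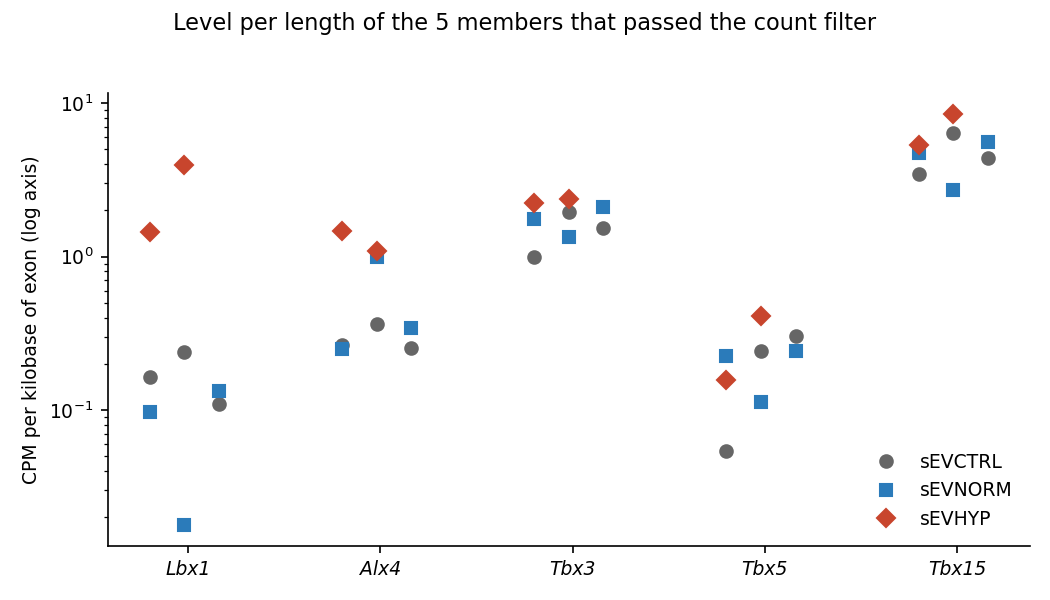
Level per length of the 5 members that passed the count filter, in CPM per kilobase of exon on a log axis, with 1 point per library (circles sEVCTRL, squares sEVNORM, diamonds sEVHYP). Tbx15 is highest in all 8 libraries, and Lbx1 spans the widest range, from 0.0178 to 3.94 CPM per kilobase.

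The hindlimb factors were near silent. Pitx1, which sets hindlimb identity, had 3 counts in sEVCTRL replicate 2, 2 counts in sEVHYP replicate 2 and 0 in the other 6 libraries. Tbx4, its partner in hindlimb outgrowth, had 1 and 5 counts in sEVCTRL replicates 2 and 3, 2 counts in sEVNORM replicate 2 and 0 in the other 5 libraries. The counts therefore summed to 5 for Pitx1 and 8 for Tbx4 over the 8 libraries, and they did not separate the groups. Differences between groups were not detectable at this depth for either gene. On GRCm38, Pitx1 (chromosome 13, 55825051 to 55836192, minus strand) shares 108 exon bases with Gm28760 on the same strand, which had 0 counts in all libraries, and Tbx4 lies on chromosome 11 (85886422 to 85916097, plus strand).

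Pax3, the paired box factor of migrating muscle precursors and of melanocyte precursors, was as low. It had 2 and 4 counts in sEVCTRL replicates 2 and 3, 2 counts in sEVHYP replicate 2 and 0 in the other 5 libraries, a sum of 8. Pax3 therefore gave no detectable signal in sEVHYP replicate 1, in which Lbx1 had 78 counts. Of its exon sequence, stretches of up to 65 bases match those of 122 other genes exactly, so single counts of Pax3 are uncertain.

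The forelimb factor Tbx5 was low but measured. Its level was 0.254, 1.14 and 1.42 CPM in the sEVCTRL libraries, 1.05, 0.532 and 1.13 in the sEVNORM libraries, and 0.732 and 1.93 in the sEVHYP libraries. The groups overlapped in all 3 comparisons, and the sEVCTRL libraries alone differed by 5.60-fold. The fitted log2 difference was 0.55 (SE 0.72) for sEVHYP against sEVNORM and 0.49 (SE 0.72) against sEVCTRL, and both changed sign without sEVHYP replicate 2 (−0.31 and −0.37). The level of Tbx5, on chromosome 5 (119832668 to 119885219, plus strand), rested on 5 to 36 counts per library, and stretches of up to 55 of its exon bases match those of 382 other genes exactly.

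Tbx3 lies next to Tbx5 on chromosome 5 (119670669 to 119684724, plus strand) and was measured at 129 to 322 counts. Its level was 6.55, 12.9 and 10.2 CPM in the sEVCTRL libraries, 11.7, 8.90 and 13.9 in the sEVNORM libraries, and 14.7 and 15.7 in the sEVHYP libraries. Both sEVHYP libraries were above all 6 others, but the distance to the next library was small beside the spread within sEVCTRL and sEVNORM. The fitted log2 difference was 0.62 (SE 0.30) against sEVCTRL and 0.40 (SE 0.30) against sEVNORM. The latter was 0.075 with the mean log2 CPM of skeletal muscle markers as a covariate and 0.25 without sEVNORM replicate 2, and the former was 0.27 with the Hox score described further on and 0.39 without sEVCTRL replicate 1. Its antisense neighbour Tbx3os1, which shares 115 exon bases with Tbx3, had 2 to 23 counts.

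Tbx15, a factor of limb, skin and adipose mesenchyme, was the most abundant member. Its level was 13.0, 23.9 and 16.5 CPM in the sEVCTRL libraries, 17.7, 10.1 and 21.0 in the sEVNORM libraries, and 20.0 and 31.9 in the sEVHYP libraries. The highest library was sEVHYP replicate 2 and the lowest sEVNORM replicate 2, which were also the libraries with most and least skeletal muscle marker RNA. The groups overlapped in all 3 comparisons. The fitted log2 difference was 0.67 (SE 0.36) for sEVHYP against sEVNORM and 0.54 (SE 0.36) against sEVCTRL, and with the same muscle covariate these became 0.22 and 0.32. Without sEVHYP replicate 2 they were 0.29 and 0.15. Tbx15 lies on chromosome 3 (99240381 to 99354259, plus strand), and its antisense neighbour Gm43120 had 0 counts.

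Alx4, an aristaless-type homeobox factor, was high in 3 of the 8 libraries. It was at 1.88, 2.55 and 1.80 CPM in the sEVCTRL libraries and at 1.77, 7.04 and 2.41 in the sEVNORM libraries, and reached 10.4 and 7.65 CPM in the sEVHYP libraries. The sEVNORM group itself was divided, in that replicate 2 was 3.98-fold above replicate 1 and lay near the lower sEVHYP library. The 3 high libraries held 143 to 227 counts and the 5 low ones 33 to 56. Both sEVHYP libraries were above all 6 others. The fitted log2 difference was 2.11 (SE 0.53) against sEVCTRL and 1.27 (SE 0.52) against sEVNORM, and without sEVNORM replicate 2 the latter was 2.11. For sEVNORM against sEVCTRL the log2 difference was 0.84 (SE 0.49) with all libraries and 0.0030 without that replicate. Alx4 (chromosome 2, 93642384 to 93681339, plus strand) overlaps Ext2 on the opposite strand with no shared exon base, and Ext2, at 31.1 to 44.0 CPM, was not high in the libraries in which Alx4 was high.

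Lbx1, the ladybird-type homeobox factor of migrating limb muscle precursors, differed most between groups. It had 8, 13 and 5 counts in the sEVCTRL libraries, 6, 1 and 7 in the sEVNORM libraries, and 78 and 183 in the sEVHYP libraries. On the CPM scale the sEVHYP libraries were at 3.57 and 9.79 and the 6 others between 0.0443 and 0.592, so the groups did not overlap, while the sEVHYP libraries differed from each other by 2.74-fold. The fitted log2 difference was 4.99 (SE 0.69) against sEVNORM and 3.94 (SE 0.64) against sEVCTRL. These values were 4.07 and 3.04 without sEVHYP replicate 2, and 5.54 and 4.50 without sEVHYP replicate 1. Separately, the paper lists LBX-1 in a signature of epithelial-mesenchymal transition that sEVHYP raised in luminal cells by RT-PCR. Those were isolated luminal cells, whereas the present libraries are of whole gland, so the cells in which Lbx1 differed were not tested. Lbx1 (chromosome 19, 45232684 to 45235812, minus strand) has no annotated neighbour within 5000 bases and shares no exact stretch of 50 bases with another gene.

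**Figure D2:**
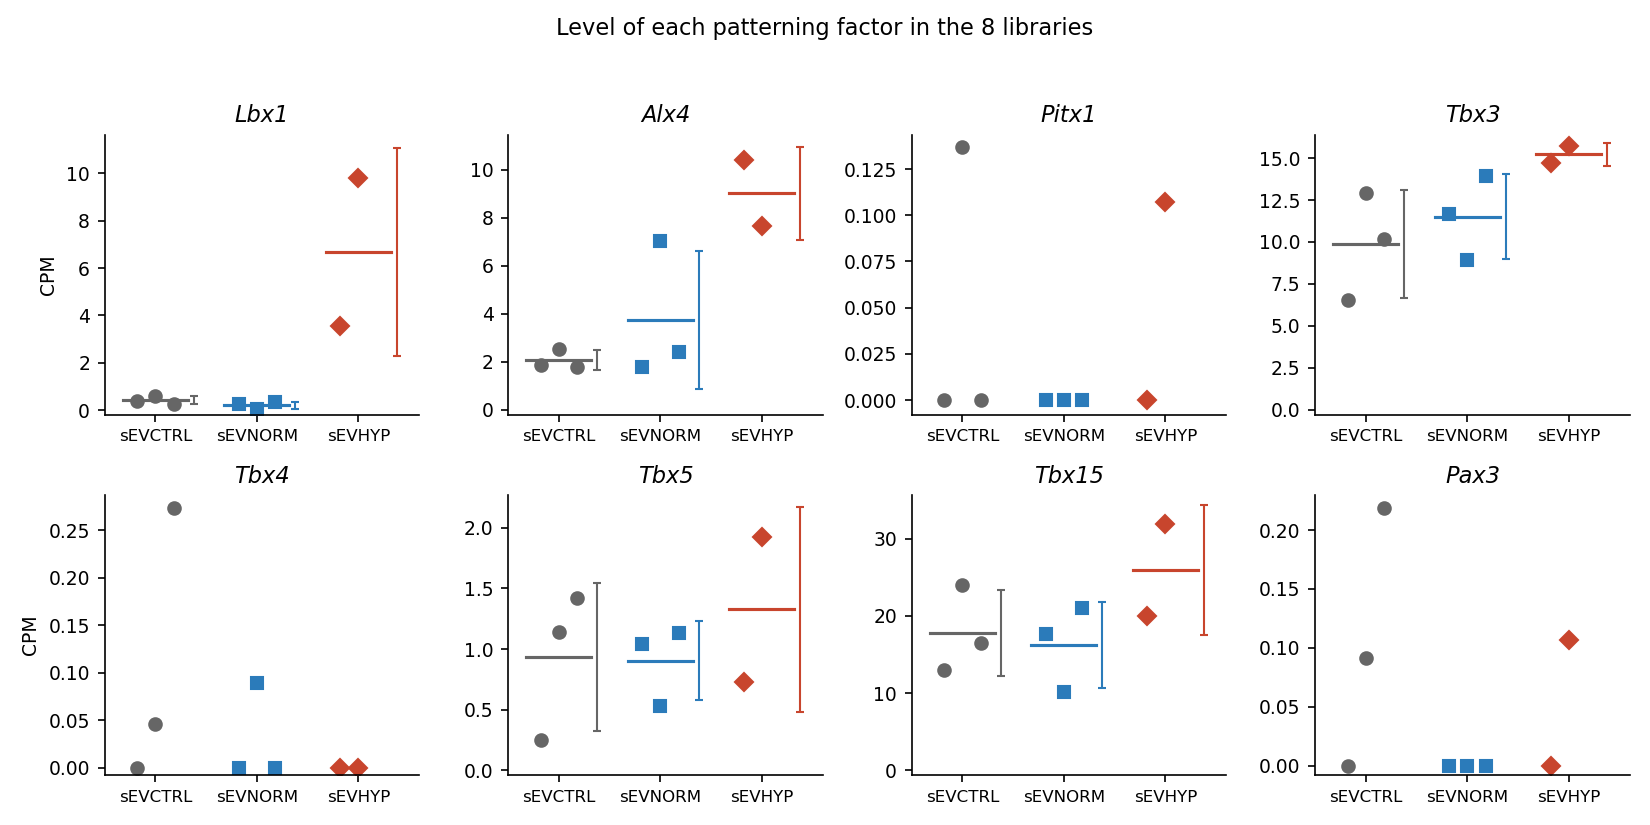
Level of each member in CPM (vertical axes, on separate linear scales) in the sEVCTRL, sEVNORM and sEVHYP libraries, with 1 point per library. The bars give the mean and SD of each group for the 5 members that passed the count filter. Lbx1, Alx4 and Tbx3 are higher in both sEVHYP libraries than in all 6 others, and Pitx1, Tbx4 and Pax3 stay at or under 5 counts per library.

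The fitted differences over the 3 comparisons are set side by side in the plot of log2 fold changes. Against sEVNORM, 2 members (Lbx1 and Alx4) of the 5 tested were higher in sEVHYP at an unadjusted P under 0.05, where 2.25% of all genes were, and 3.95% of all genes passed in either direction. The same 2 were higher against sEVCTRL, where 1.39% of all genes were and 2.45% passed in either direction, and the comparisons share the sEVHYP libraries. For sEVNORM against sEVCTRL the count was 0 of 5, beside 1.62% of all genes in either direction and 0.89% in the higher direction. Groups did not overlap, with sEVHYP higher, for 3 members (Lbx1, Alx4 and Tbx3) against each of the other groups, beside 12.3% of all genes against sEVNORM (22.8% in either direction) and 6.7% against sEVCTRL (12.8% in either direction). For sEVNORM against sEVCTRL this held for 0 members, beside 2.68% of all genes higher and 4.85% in either direction. Because the members were chosen with these differences known, nothing is read from the counts. The median log2 difference of the 5 members was 0.67 against sEVNORM and 0.62 against sEVCTRL, beside −0.02 over all genes in both comparisons, and −0.05 for sEVNORM against sEVCTRL.

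**Figure D3:**
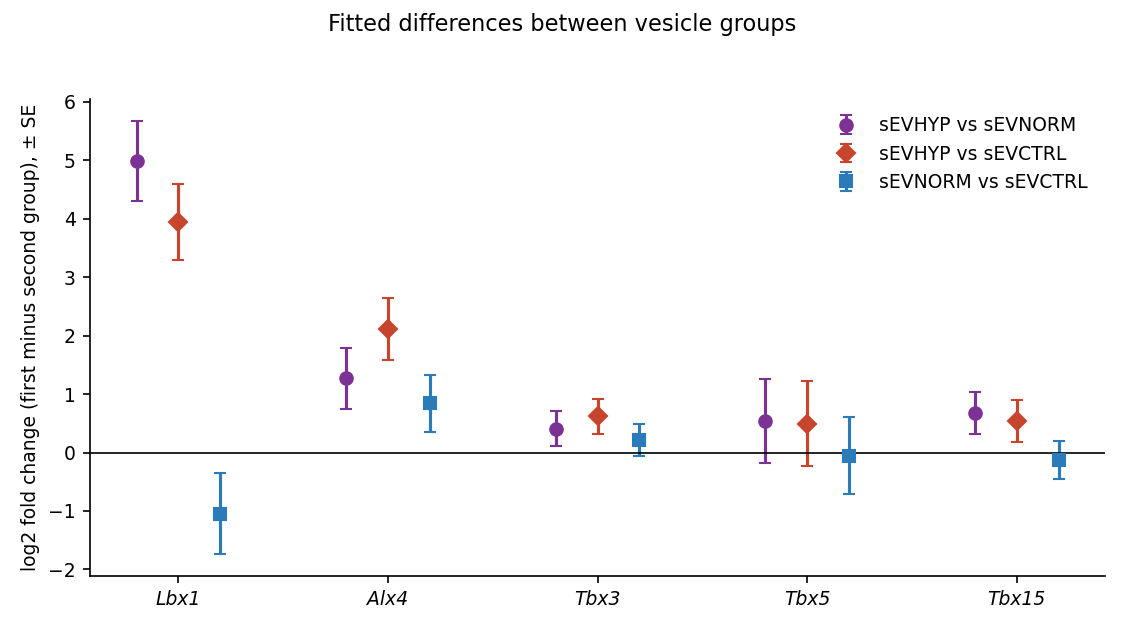
Fitted log2 fold change (vertical axis, first minus second group, bars ± SE) of the 5 tested members in the 3 comparisons. Lbx1 stands at 4.99 and 3.94 in the sEVHYP comparisons and at −1.04 for sEVNORM against sEVCTRL, and Tbx3, Tbx5 and Tbx15 lie between −0.13 and 0.67 in all 3.

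After adjustment over all genes (edgeR's quasi-likelihood test, Benjamini-Hochberg), 0 genes passed an adjusted P of 0.05 in any comparison, and 706, 438 and 290 had an unadjusted P under 0.05 for sEVHYP against sEVNORM, sEVHYP against sEVCTRL and sEVNORM against sEVCTRL. Lbx1, which passed the count filter only through its high sEVHYP libraries, had an adjusted P of 0.807 against sEVNORM and 1.00 against sEVCTRL in edgeR. With no filter on low counts these edgeR values were 0.00582 and 0.0636, and 1 and 0 genes passed. DESeq2 on only the groups compared passed 83, 14 and 3 genes and DESeq2 on all libraries 16, 4 and 2. Its adjusted P for Lbx1 on only the groups compared was 1.35e-07 against sEVNORM and 9.67e-06 against sEVCTRL. For Alx4 these DESeq2 values were 0.653 and 0.000518, and on all 8 libraries they were 1.00 and 0.297.

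Skeletal muscle markers and the 2 members that differed most were set beside each other in each library. The summed muscle markers were 845, 11890 and 2996 CPM in the sEVCTRL libraries, 3942, 40.8 and 2045 in the sEVNORM libraries, and 6088 and 16647 in the sEVHYP libraries. The library sEVCTRL replicate 2 held more muscle marker RNA than sEVHYP replicate 1, with Lbx1 at 0.592 CPM in the former and at 3.57 in the latter. All 17 muscle markers passed the filter. Of these, 13 were higher in both sEVHYP libraries than in all sEVNORM libraries, beside 12.3% of all genes. Against sEVCTRL this held for 0, beside 6.7% of all genes. The fitted value was higher in sEVHYP than in sEVCTRL for 13 markers and lower for 4. Myh1 reached 364 CPM in sEVCTRL and 65.8 in sEVHYP, whereas Myh4 reached 2124 and 4103. The summed level therefore does not show the kind of muscle, which was not tested. With the muscle score as a covariate, the log2 difference of Lbx1 was 4.30 against sEVNORM and 3.52 against sEVCTRL, and that of Alx4 was 2.05 and 2.33. Alx4 was at 7.04 CPM in sEVNORM replicate 2, the library with the least muscle RNA.

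The summed level of brown adipocyte markers was highest in sEVHYP replicate 2. Of 8 listed, 6 passed the filter, and the fitted value of 6 of 6 was higher in both sEVHYP comparisons. The median log2 difference was 1.06 against sEVNORM and 0.83 against sEVCTRL. With sEVHYP higher, 1 and 2 of these genes had an unadjusted P under 0.05, beside 2.25% and 1.39% of all genes. Groups did not overlap, with sEVHYP higher, for 3 and 2 of these genes, beside 12.3% and 6.7% of all genes. The summed level of the listed markers was 28.9 to 49.4 CPM in the sEVCTRL and sEVNORM libraries and 49.9 and 85.4 in the sEVHYP libraries. Replicate 1 of sEVHYP thus lay next to the highest library of the other groups. Dio2, the deiodinase that activates thyroid hormone in brown fat, was at 6.47 CPM in sEVNORM replicate 2 and at 3.89 and 15.9 in the sEVHYP libraries, and between 0.924 and 3.45 in the other 5. Ucp1, the defining uncoupling protein, was at 0.203, 0 and 0 CPM in the sEVCTRL libraries and at 0.0402, 2.04 and 0.331 in the sEVNORM libraries. In the sEVHYP libraries Ucp1 was at 0.320 and 6.15 CPM, and only replicate 2 was above all sEVCTRL and sEVNORM libraries. Cox7a1 was at 1.57, 9.62 and 3.83 CPM in sEVCTRL, 5.63, 2.21 and 4.63 in sEVNORM, and 9.52 and 15.1 in sEVHYP. Cox8b was at 12.5, 17.9 and 20.7 CPM in sEVCTRL, 13.9, 14.8 and 15.6 in sEVNORM, and 16.9 and 27.0 in sEVHYP. The summed skeletal muscle markers were also highest in sEVHYP replicate 2, and the part of muscle in the brown adipocyte list was not tested. The part of brown adipocytes in the levels of Lbx1 and Alx4 was not tested.

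Of 20 genes of migrating muscle precursors and myogenesis, 14 passed the filter. At an unadjusted P under 0.05, 3 were higher and 1 lower in sEVHYP than in sEVNORM, beside 2.25% of all genes higher and 3.95% in either direction. The count was 0 for sEVHYP against sEVCTRL and 0 for sEVNORM against sEVCTRL, beside 2.45% and 1.62% of all genes in either direction. Cxcr4, a chemokine receptor used by migrating precursors and by leukocytes, was higher by 1.14 (SE 0.36, log2), Mstn, a growth inhibitor made by muscle, by 3.09 (SE 1.36), and Chrna1, a subunit of the muscle acetylcholine receptor, by 2.39 (SE 1.04). Eya2, a transcriptional cofactor of myogenesis, was lower by 1.06 on the log2 scale (SE 0.39). The satellite cell factor Pax7 had 1 count in all 8 libraries together, and the myoblast factors Myod1 and Myf5 reached at most 0.504 and 0.775 CPM. Mstn was at 26.8 CPM in sEVCTRL replicate 2, beside 16.4 and 29.7 in the sEVHYP libraries. Chrna1 was at 1.46 CPM in that sEVCTRL library, beside 0.595 and 1.34 in the sEVHYP libraries. Cxcr4 was at 98.6 CPM in sEVCTRL replicate 1, beside 156 and 84.8 in the sEVHYP libraries. These 3 genes therefore did not divide the libraries as Lbx1 did.

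Hox genes, whose paralogue number follows position along the body axis, were compared as a measure of position. Of the paralogues 10 to 13, 3 of 12 genes passed the filter (Hoxc10, Hoxa10 and Hoxd10), as did 9 of 9 of the paralogues 7 to 9 and 9 of 10 of the paralogues 4 to 6. The level of Hoxc10, a lumbar and hindlimb gene, was 13.0, 16.2 and 13.1 CPM in the sEVCTRL libraries, 15.2, 9.48 and 15.0 in the sEVNORM libraries, and 16.8 and 28.7 in the sEVHYP libraries. Hoxc10 was higher in both sEVHYP libraries than in all others, by a log2 difference of 0.78 (SE 0.29) against sEVNORM and 0.69 (SE 0.29) against sEVCTRL, with unadjusted P of 0.0228 and 0.0395 in edgeR and adjusted P of 1.00 in both. Hoxa10 and Hoxd10 differed by 0.14 (SE 0.33) and −0.02 (SE 0.42) against sEVNORM. Against sEVCTRL they differed by 0.49 (SE 0.33) and −0.33 (SE 0.42), and Hoxa10 was higher in both sEVHYP libraries (4.21 and 4.71 CPM) than in the sEVCTRL libraries (2.74, 3.46 and 3.34). Hoxa13, Hoxd11, Hoxd12 and Hoxd13, genes of the distal limb, had 0 counts in all libraries.

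A Hox score, the mean log2 CPM of the 3 tested paralogues 10 to 13 minus that of the 9 tested paralogues 4 to 6, was −0.18, 0.26 and 0.01 in the sEVCTRL libraries, 0.29, 0.49 and 0.21 in the sEVNORM libraries, and 0.57 and 0.46 in the sEVHYP libraries. The 3 libraries with the highest score were the 3 with high Alx4. Over the 8 libraries, log2 CPM of Alx4 and the score had a Pearson r of 0.83 and a Spearman rho of 0.71, and r was 0.85 without the 2 libraries farthest from the median. Alx4 and the Hox genes share the same 8 libraries and their scaling, and the groups differ in score, so this is a description. In sEVNORM replicate 2 the paralogues 4 to 6 were low (mean log2 CPM 1.78, against 2.15 to 2.65 elsewhere), and Hoxc10 was at its lowest. With the score as a covariate, the log2 difference of Alx4 was 0.71 against sEVCTRL and 0.87 against sEVNORM, and that of Lbx1 was 4.49 and 5.23. Body position and treatment cannot be told apart from these labels, and the part of position in the level of Alx4 was not tested.

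**Figure D4:**
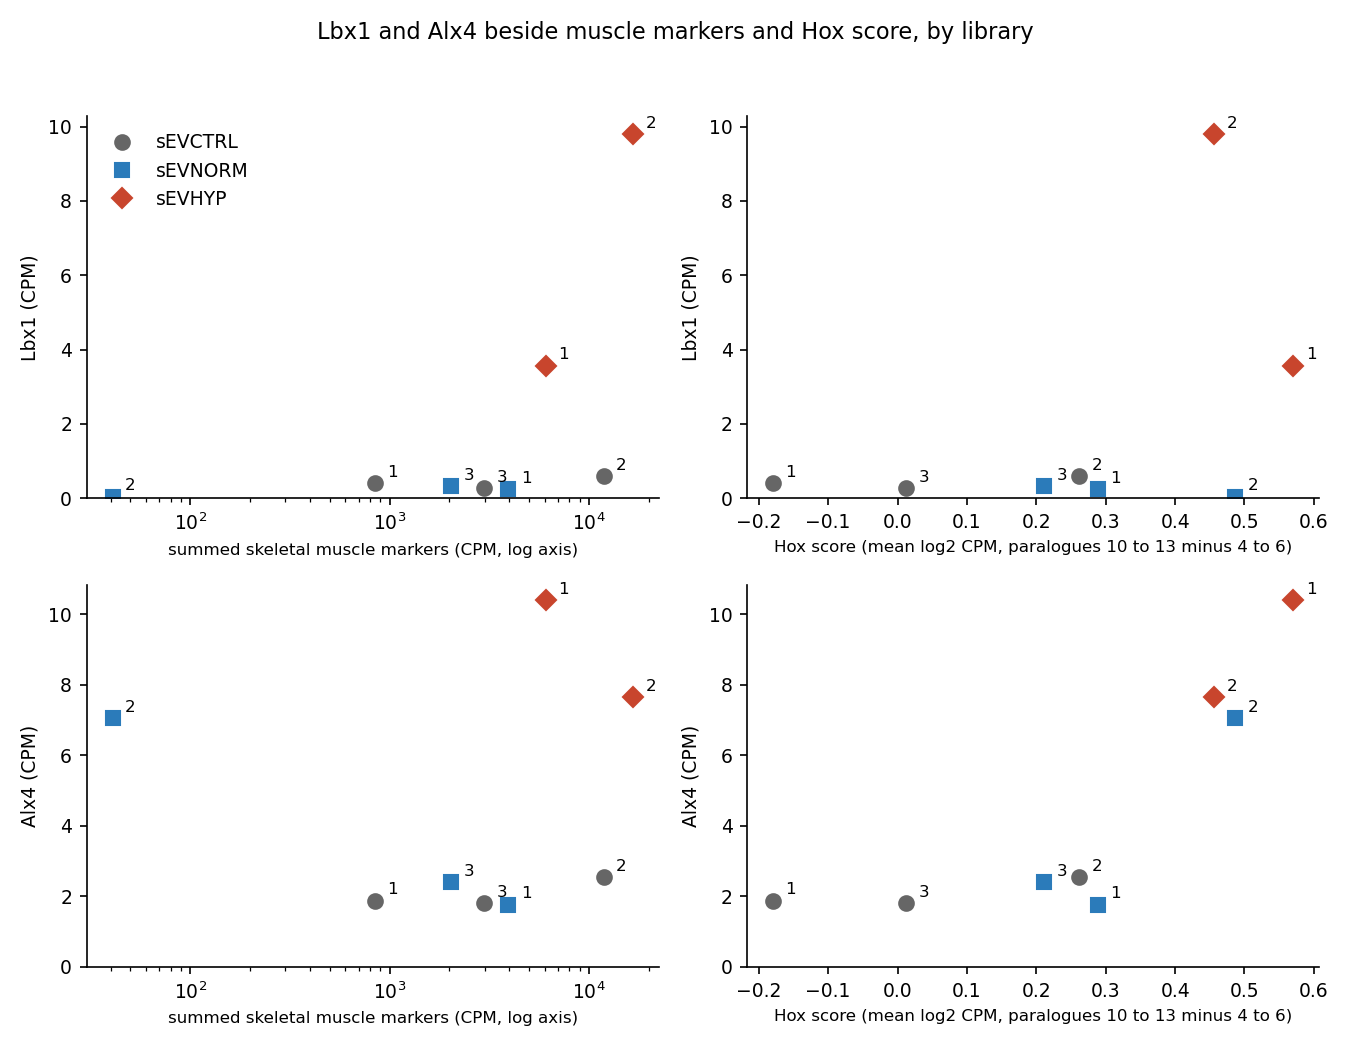
Lbx1 (upper panels) and Alx4 (lower panels) in CPM against the summed skeletal muscle markers (left, CPM on a log axis) and the Hox score (right, difference of mean log2 CPM), with 1 point per library labelled by its replicate number. The library sEVCTRL replicate 2 has much muscle RNA and Lbx1 at 0.592 CPM, and the 3 libraries with Alx4 above 7 CPM have the 3 highest Hox scores.

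The genes whose levels were most like those of each tested member were ranked by Pearson's r of log2 CPM over the 8 libraries, among 15189 genes with a mean of at least 1 CPM. For Alx4 they were Basp1, a membrane-bound protein of neurons and other cells (r = 0.98), the long noncoding RNA Gm12248 (0.97), and Oxtr, the oxytocin receptor of myoepithelial cells (0.96). Without the 2 sEVHYP libraries these values were 0.97, 0.95 and 0.90. Gm12248 divided the libraries as Alx4 did, at 7.44 CPM in sEVNORM replicate 2, 7.78 and 9.04 in the sEVHYP libraries, and 0.189 to 0.547 in the other 5. Oxtr was at 87.1 CPM in sEVNORM replicate 2, 99.1 and 83.7 in the sEVHYP libraries, and 45.8 to 62.3 in the others.

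For Lbx1 the most alike genes were Aspa, the enzyme that cleaves N-acetylaspartate (r = 0.97), Eif4e3, a cap-binding translation factor (0.96), and Dusp10, a MAP kinase phosphatase (0.96). Without the 2 sEVHYP libraries r stayed at 0.96 for Aspa and was 0.58 for Eif4e3 and 0.52 for Dusp10. Their range was narrow, since Aspa ran from 36.1 to 67.0 CPM and Eif4e3 from 80.0 to 104. The correlation of Lbx1 with Alx4 was 0.57, and −0.75 without both sEVHYP libraries, so these 2 members shared the sEVHYP libraries and not sEVNORM replicate 2.

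**Figure D5:**
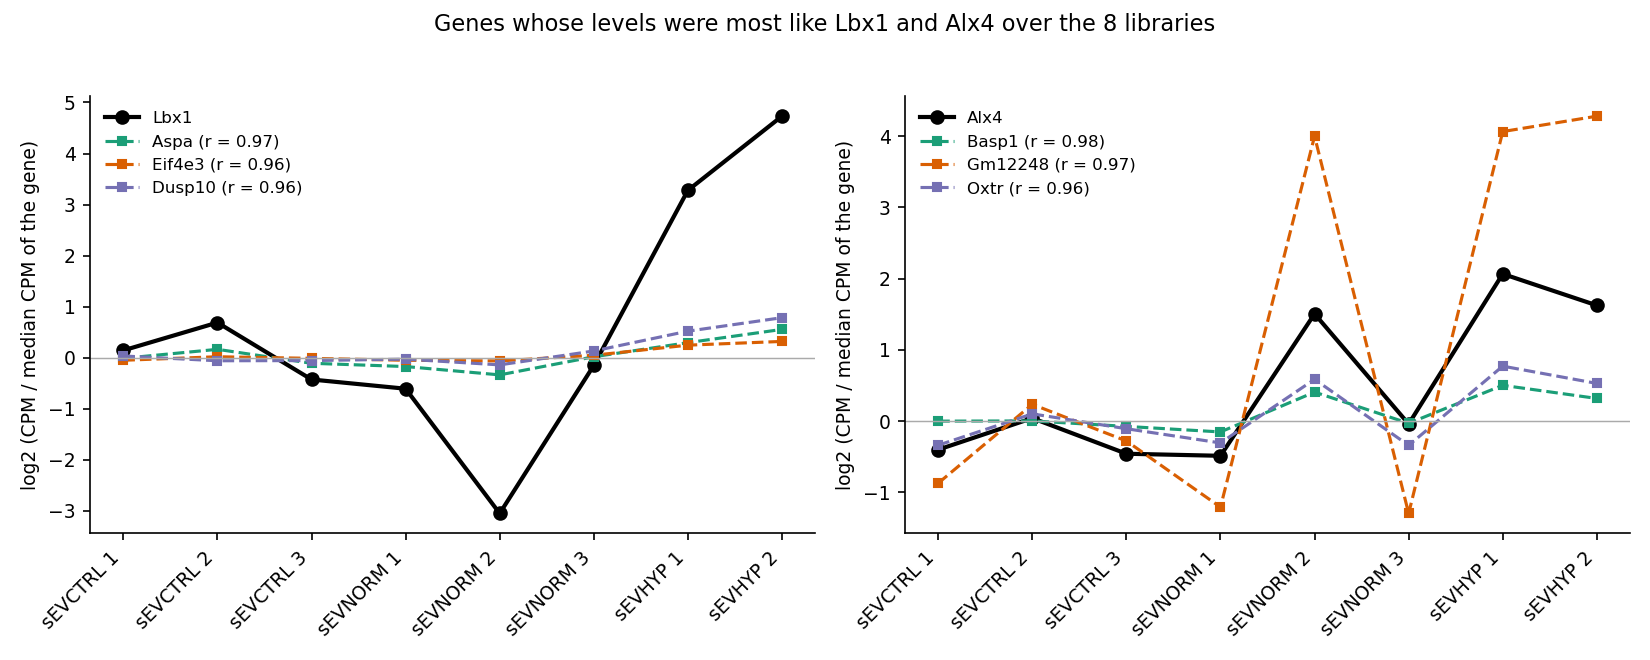
Levels of Lbx1 (left) and Alx4 (right) and of the 3 genes most like each over the 8 libraries, as log2 of CPM over the median CPM of the gene. Gm12248, Basp1 and Oxtr are high with Alx4 in sEVNORM replicate 2 and both sEVHYP libraries, whereas Lbx1 is at its lowest, 0.0443 CPM, in sEVNORM replicate 2.

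The levels of the 3 measured T-box members were also compared with each other. Pearson's r of log2 CPM was 0.83 between Tbx3 and Tbx15, 0.76 between Tbx5 and Tbx15, and 0.79 between Tbx3 and Tbx5, and the last fell to 0.00055 without the 2 libraries farthest from the median. Tbx15 had an r of 0.91 with the fibroblast marker score, 0.90 with muscle, 0.845 with basal epithelium, 0.82 with luminal epithelium and 0.60 with white adipocytes. In the same order, Tbx3 had 0.84, 0.71, 0.96, 0.94 and 0.36. Without the 2 libraries farthest from the median of the score, r was 0.70 for Tbx15 with muscle. It was 0.79 for Tbx3 with basal and 0.69 with luminal epithelium, and 0.95 for Tbx15 with fibroblasts. These are correlations over 8 libraries that differ in tissue makeup. The genes most like Tbx3 were Ssc5d (r = 0.99), Plekhh2 (0.97) and Pygo1 (0.96), and those most like Tbx15 were Kif13a, Stom and Zfhx3 (each 0.98). For Tbx5 they were Pex3 (0.99) and Pex11g (0.97), both of peroxisomes, and Papss1 (0.98), an enzyme of sulfate donor synthesis.

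Among the 13 other T-box genes, 7 passed the filter. Tbx18, a factor of mesenchymal and mural cells, was the only one with an unadjusted P under 0.05 in any comparison, and it was higher than in sEVCTRL in both sEVHYP (log2 difference 0.63, SE 0.25) and sEVNORM (0.53, SE 0.23). Its level was 5.43, 9.16 and 7.55 CPM in the sEVCTRL libraries and 9.61 to 12.1 in the other 5. At this P, 1 of the 7 passed in each comparison with sEVCTRL, beside 2.45% of all genes for sEVHYP and 1.62% for sEVNORM. For sEVHYP against sEVNORM 0 passed, beside 3.95% of all genes. Mga (99.2 to 143 CPM) and Eomes, a factor of T and natural killer cells (4.23 to 10.9 CPM), were the other abundant members, and T, the founding T-box gene, had 0 counts. Of 8 other paired box genes, only Pax5, the B cell factor, passed the filter, at 77.9 to 272 CPM, and it did not pass the unadjusted threshold in any comparison.

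Of 25 further homeobox genes of limb and trunk mesenchyme, 18 passed the filter. Abundant ones were Prrx1 (76.8 to 184 CPM) and Shox2 (19.6 to 38.4), both expressed in limb mesenchyme, and their groups overlapped in each comparison. Prrx2 was the only gene of the list with an unadjusted P under 0.05 in any comparison, with 2.24 and 1.39 CPM in the sEVHYP libraries, 0.482, 0.709 and 0.567 in the sEVNORM libraries and 0.711, 0.775 and 1.53 in the sEVCTRL libraries. Its log2 difference was 1.63 (SE 0.50) against sEVNORM and 0.86 (SE 0.49) against sEVCTRL. Only the former passed, as 1 of the 18 genes, beside 2.25% of all genes higher and 3.95% in either direction. The count was 0 for sEVHYP and for sEVNORM against sEVCTRL, beside 2.45% and 1.62% of all genes in either direction. A pair of relatives of the members were named after their values were seen. Lbx2 stayed between 0.0402 and 0.473 CPM, and Alx1 had 1 count in all 8 libraries together.

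Of 26 signals and effectors of limb outgrowth, 18 passed the filter. Wnt5a, a noncanonical Wnt ligand needed for limb outgrowth, was at 39.2 and 40.1 CPM in the sEVHYP libraries, above 22.4, 31.9 and 18.8 in the sEVCTRL libraries and 25.8, 23.7 and 27.1 in the sEVNORM libraries. Its log2 difference was 0.64 (SE 0.22) against sEVNORM and 0.70 (SE 0.22) against sEVCTRL. Bmp4, a ligand of limb and mammary bud mesenchyme, was lower than in sEVCTRL (3.50, 3.05 and 4.16 CPM) in sEVHYP (1.24 and 1.93) and in sEVNORM (2.41, 1.86 and 1.80), with log2 differences of −1.18 (SE 0.35) and −0.82 (SE 0.30). These were the only 2 genes of the list with an unadjusted P under 0.05. Against sEVNORM, 1 of the 18 was higher in sEVHYP, beside 2.25% of all genes higher and 3.95% in either direction. Against sEVCTRL, 1 was higher and 1 lower in sEVHYP, beside 2.45% of all genes in either direction. For sEVNORM against sEVCTRL 1 was lower, beside 1.62% in either direction. The limb ridge signal Fgf8 and the dorsal signal Wnt7a had 0 counts.

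Of 20 genes of the mammary placode and bud, among which Tbx3 acts in the embryo, 17 passed the filter and 1 had an unadjusted P under 0.05. This was Pth1r, the receptor of parathyroid hormone-related protein in bud mesenchyme, with a log2 difference of 1.10 (SE 0.39) for sEVHYP against sEVNORM and 0.78 (SE 0.39) against sEVCTRL. It was at 16.7 and 8.88 CPM in the sEVHYP libraries, with 10.1 CPM in sEVCTRL replicate 3. Only its difference from sEVNORM passed, where 2.25% of all genes were higher and 3.95% passed in either direction. For sEVHYP and for sEVNORM against sEVCTRL, 0 of the 17 passed, beside 2.45% and 1.62% of all genes. Gata3, the luminal factor, was at 37.0 to 82.2 CPM and its relative Trps1 at 75.0 to 166 CPM. No gene on these lists had an adjusted P under 0.05 with edgeR, beside 0 of all genes in each comparison.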

How the data were processed

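Whole mammary gland polyA RNA was sequenced in 8 libraries, prepared with the Lexogen SENSE mRNA-Seq kit. STAR was used by the authors for alignment (mm10) and RSEM 1.2.12 for estimating reads per gene of the Ensembl GRCm38 annotation. The deposited counts are whole numbers that were not normalized. How the RSEM estimates were rounded, and the strand setting, were not given in the sources used here. Groups were taken from the sample labels. Symbols, positions and exon lengths came from a GRCm38 annotation, and 193 of 51789 genes had no symbol.

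The analysis used edgeR 4.0.16 under R 4.3.3 (TMM, two-sided quasi-likelihood F-test, genes kept by filterByExpr at min.count 10) in a single model of the 3 groups, with Benjamini-Hochberg adjustment over 17858 genes. An unadjusted P of 0.05 was the threshold. The SE is the log2 fold change divided by the square root of F. Log2 CPM used a prior count of 2. The procedure was tested on simulated data. The members and gene lists were chosen with earlier results of these data known. Named are the members, up to 3 genes most like each tested member, the 3 most abundant genes of a list and those with an unadjusted P under 0.05, and overlapping genes. Some genes that this rule allows are not reported here. Alternatives were DESeq2 1.42.0, its size factors, other filters and samples, the replicate number as a block, muscle and Hox scores as covariates, Spearman correlation, and each library left out. No libraries were duplicates.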

Additional observations from a re-analysis of the deposited data

How the results depend on the processing

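Over the alternatives, 248 fitted differences of the 5 members were computed, of which 222 kept their direction and their side of an unadjusted P of 0.05, 7 lost the threshold, 6 passed it and 13 changed sign. The difference of Lbx1 kept its sign and its unadjusted P under 0.05 in both sEVHYP comparisons under all 16 alternatives that could be fitted, at 4.07 to 5.54 against sEVNORM and 3.04 to 4.50 against sEVCTRL. Lbx1 was chosen with this difference known, and the alternatives refit the same libraries, so this is a description and no independent support. The count of members past the threshold for sEVHYP against sEVNORM fell from 2 to 1 with edgeR on only the groups compared, with at least 10 counts in every library and with the Hox score as a covariate, and ranged from 1 to 2 with a library left out (1 without sEVCTRL replicate 3 and sEVNORM replicate 1). Without sEVNORM replicate 3 or sEVHYP replicate 1, Alx4 (1.04 and 1.03) no longer passed and Tbx15 (0.90 and 0.98) did. Against sEVCTRL it was 1 with at least 10 counts in every library and with the Hox score, and 2 to 3 with a library left out, with Tbx3 (0.87) passing without sEVCTRL replicate 2. With no filter on low counts it was 3 in both sEVHYP comparisons, with Tbx15 (P 0.0429 in edgeR) against sEVNORM and Tbx3 (0.0474) against sEVCTRL. For sEVNORM against sEVCTRL it was 0 to 1, with Alx4 passing without sEVNORM replicate 1. The filter at 10 counts removed Lbx1 and Tbx5, which then could not be fitted. Over all genes, 706, 438 and 290 were under this P in the 3 comparisons. Apart from the fits with a library left out, these counts ran from 489 to 1195, 154 to 672 and 176 to 533 (lowest with the Hox score). They rose to 986, 1472 and 1018 without sEVCTRL replicate 2. Of the 15 genes named as most alike, 4 stayed among the first 3 by Spearman correlation.

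Sign changes were limited to Alx4, Tbx3, Tbx5 and Tbx15, and their cause was not tested. With the Hox score, Alx4 for sEVNORM against sEVCTRL was −0.16. With the muscle score, Tbx5 was −0.022 for sEVHYP against sEVNORM and 0.25 for sEVNORM against sEVCTRL, and Tbx15 was 0.10 in the latter. With a library left out, Tbx5 ranged from −0.31 to 1.09 for sEVHYP against sEVNORM, from −0.37 to 1.04 for sEVHYP against sEVCTRL and from −0.52 to 0.36 for sEVNORM against sEVCTRL, where Tbx15 ranged from −0.36 to 0.14 and Tbx3 from −0.027 to 0.46. Deviations from the group means of libraries with the same replicate number had an r from −0.42 to 0.37. The deviations of the 2 sEVHYP libraries mirror each other by construction, so these values cannot decide whether the number pairs libraries. With the replicate number as a block, 2, 2 and 0 members passed the threshold, as without it, 769, 401 and 252 genes did, and Tbx5 was 0.19 for sEVNORM against sEVCTRL. With 2 sEVHYP libraries, leaving out either assumes that the other varies like the other groups. Depth limits Pitx1, Tbx4 and Pax3.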
